A study of Mus musculus with 6 samples.

Results

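The genes described here are 10 negative regulators of the extracellular signal-regulated kinase (ERK) pathway and of its sister MAP kinases: the dual-specificity phosphatase genes Dusp1, Dusp2, Dusp4, Dusp5, Dusp6 and Dusp10, the Sprouty genes Spry1, Spry2 and Spry4, and the Sprouty relative Spred1. They were chosen with earlier results of these data known. Their probes were taken by name, as every noncontrol probe whose gene name in the scanner output was one of these symbols. This gave 13 of 39416 probes and 10 of 29590 genes. Their RNA was measured in mouse bone marrow-derived mast cells on 6 single-colour Agilent arrays, 1 array for each of 6 groups. The groups were mast cells labelled Pla2g3-/- in coculture with wild-type Swiss 3T3 fibroblasts, Pla2g3+/+ mast cells in the same coculture, wild-type mast cells on Lpar1-/- Swiss 3T3 fibroblasts, wild-type mast cells on Lpar1+/+ Swiss 3T3 fibroblasts, mast cells labelled Pla2g3-/- without fibroblasts, and Pla2g3+/+ mast cells without fibroblasts. The product of Pla2g3 is a phospholipase that cells secrete, and Lpar1 codes for a cell surface receptor of lysophosphatidic acid. All mast cells had been grown from bone marrow in interleukin-3 at 10 ng/ml. The 4 cocultures lasted 4 days and received stem cell factor, the ligand of the receptor Kit, at 100 ng/ml. For the cultures without fibroblasts no stem cell factor is named in the labels, so fibroblasts and stem cell factor cannot be told apart. Swiss 3T3 is an established mouse embryo fibroblast line, and its Lpar1-/- form was made with CRISPR/Cas9 and single-cell cloning. Lpar1 loss, as named below, therefore cannot be told apart from other differences between the Lpar1-/- and Lpar1+/+ fibroblasts. Neither age nor strain of the mice is stated in the labels.

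Each array held RNA pooled from 3 samples, so no group had a replicate and no p-value could be had. Precision is limited by the number of arrays. A level below is log2 of the scanner's processed signal minus the 75th percentile of its array, so that 0 stands for the signal of that percentile. The 75th percentile was 1230 to 1520 over the arrays, 70.7% to 80.4% of spots were well above background, and 0 spots were saturated. The Pla2g3+/+ coculture and the coculture on Lpar1+/+ fibroblasts, whose labels name like conditions and which are called the wild-type cocultures below, served as the measure of repeat error: 95% of 21930 genes lay within 0.54 of each other on the log2 scale. All 3 probes of Pla2g3 went against the label. The brightest read -1.84 on the array labelled Pla2g3-/- and -7.31 on the Pla2g3+/+ array in coculture, and 0.51 against -6.31 without fibroblasts. The other 2 were well above background on both arrays labelled Pla2g3-/- and on neither Pla2g3+/+ array. The extent of the deletion is not stated in the labels, so each direction drawn from that genotype rests on its label. The Lpar1 probe read -3.89 on the Lpar1-/- array and -4.14 on the Lpar1+/+ array. It read higher in mast cells alone, at -2.85 under the Pla2g3-/- label and -2.84 under Pla2g3+/+. The probe therefore does not check the fibroblast genotype. The RNA was from separated mast cells, but most fibroblast markers were well above background in every coculture, as given below. The part of fibroblast RNA in the coculture values was not tested. Mast cells alone were hybridised on slide 1 and every coculture on slide 2. Coculture therefore cannot be told apart from the slide, whereas both genotype comparisons lay within a slide. The repeat error comes from slide 2 alone, so it does not measure error between cocultures and mast cells alone. Where it is used below across slides, it is only a yardstick of size. In bulk RNA such as this, fewer cells of a type and less RNA per cell cannot be told apart.

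ERK is switched on by receptor tyrosine kinases such as Kit through Ras, Raf and MEK. Active ERK induces transcription of its own inhibitors, and transcripts of several of these genes are short-lived, which is why they are widely used as readouts of ERK activity. The phosphatases remove the activating phosphates from MAP kinases. Sprouty and Spred proteins act higher up, between the receptor and Raf, and Spred1 recruits the Ras GTPase-activating protein neurofibromin to the membrane. In mast cells, Kit signalling through this pathway serves survival, growth and maturation.

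The 250 bases upstream of the RefSeq transcription start (GRCm38.p6) were available for 8 of the 10 genes, all except Dusp4 and Spry4. They were searched on both strands for the letters of elements through which ERK-responsive or cAMP-responsive factors are known to work: TGACGTC (the cAMP response element), TGANTCA (the AP-1 site), CCGGAA (an ETS site) and the CArG box of serum response factor. The first was found in Dusp1 and the last in Dusp5, which are shown because they hold the only matches. Dusp6 and Spry1 are shown because they had the lowest values in the comparisons below, and neither holds any of the 4 motifs. Capitals mark the matches.
Dusp1: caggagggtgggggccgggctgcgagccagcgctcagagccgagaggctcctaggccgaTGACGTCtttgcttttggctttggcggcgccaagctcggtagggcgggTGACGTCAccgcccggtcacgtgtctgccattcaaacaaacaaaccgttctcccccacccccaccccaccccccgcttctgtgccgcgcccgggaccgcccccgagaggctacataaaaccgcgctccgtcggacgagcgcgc
Dusp5: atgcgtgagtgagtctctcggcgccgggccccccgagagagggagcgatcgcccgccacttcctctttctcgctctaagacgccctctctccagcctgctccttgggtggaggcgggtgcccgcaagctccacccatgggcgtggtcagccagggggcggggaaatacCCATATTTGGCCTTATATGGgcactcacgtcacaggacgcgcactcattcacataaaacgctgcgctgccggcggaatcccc
Dusp6: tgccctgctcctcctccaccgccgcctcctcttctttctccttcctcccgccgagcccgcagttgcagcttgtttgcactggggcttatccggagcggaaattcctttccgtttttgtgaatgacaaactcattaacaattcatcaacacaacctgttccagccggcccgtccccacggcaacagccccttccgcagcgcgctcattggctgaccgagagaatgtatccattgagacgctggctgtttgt
Spry1: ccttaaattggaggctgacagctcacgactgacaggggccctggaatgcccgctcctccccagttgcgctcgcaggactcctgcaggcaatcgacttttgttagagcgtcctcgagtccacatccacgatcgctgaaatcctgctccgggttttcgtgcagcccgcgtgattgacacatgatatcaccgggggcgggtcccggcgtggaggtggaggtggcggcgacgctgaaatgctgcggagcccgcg
The windows are chr17:26508473-26508722 on the minus strand for Dusp1, chr19:53528895-53529144 on the plus strand for Dusp5, chr10:99262981-99263230 on the plus strand for Dusp6 and chr3:37639697-37639946 on the plus strand for Spry1. In Dusp1 the cAMP response element begins 191 bases upstream of the start, and a second copy, 143 bases upstream, overlaps its own reverse complement. In Dusp5 a pair of CArG boxes stands end to end, 82 to 73 and 72 to 63 bases upstream. Of all 32851 promoter windows in the table, 2.78% held TGACGTC, 6.75% TGANTCA, 12.0% CCGGAA and 1.47% a CArG box. TGACGTC was in 1 of the 8 windows, the CArG box in 1, and the other 2 motifs in 0 of 8. The 8 genes searched therefore had none of these 4 motifs in common within these windows.

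All 10 genes were lower in the cocultures labelled Pla2g3-/- and Lpar1-/- than in either wild-type coculture. The gap between the lower wild-type coculture and the higher of the other pair ran from 0.96 for Spred1 to 4.39 for Spry1 on the log2 scale. Where mast cells alone lay relative to the cocultures divided the genes. For Dusp1, Dusp4, Dusp6 and Spry1 both of these low cocultures were at least 2-fold below both arrays of mast cells alone. For Dusp2, Dusp4, Dusp10, Spry2 and Spry4 both wild-type cocultures were at least 2-fold above both arrays of mast cells alone. Dusp4 did both, and Dusp5 and Spred1 did neither. The share of all genes that meet these criteria was not determined, so this grouping only describes the members.

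**Figure D1:**
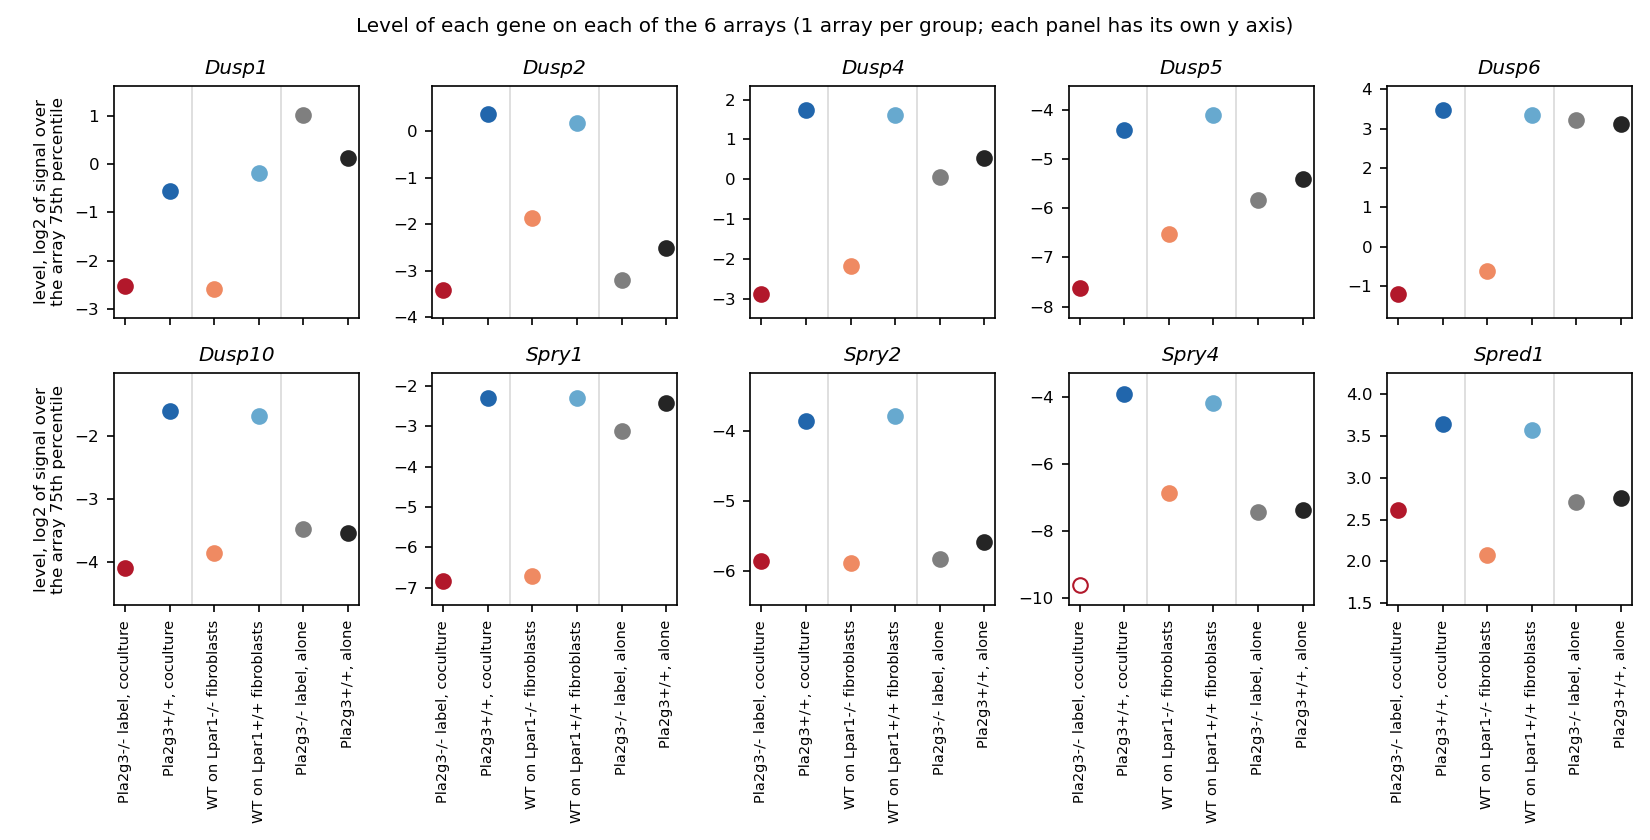
Level of each gene (y axis, log2 of signal over the 75th percentile of the array; each panel has its own scale) on each of the 6 arrays (x axis). Each point is 1 array, filled where the spot was well above background and open for Spry4 on the Pla2g3-/- labelled coculture, where it was not; in every panel both wild-type cocultures lie above the cocultures labelled Pla2g3-/- and Lpar1-/-.

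Dusp6 encodes the cytoplasmic phosphatase that acts on ERK and little on the other MAP kinases. Its probe (chromosome 10, 98729985 to 98730044, mm9 as in the files) read -1.21 in the Pla2g3-/- labelled coculture and 3.49 in the Pla2g3+/+ coculture. It read -0.62 on Lpar1-/- fibroblasts and 3.36 on Lpar1+/+ fibroblasts. Mast cells alone read 3.22 under the Pla2g3-/- label and 3.11 under Pla2g3+/+. Thus 4 arrays lay together, no neighbour in their order more than the repeat error of 0.54 away, and the 2 other cocultures lay far below them. The difference was -4.69 (25.9-fold lower, scanner error 0.20) for the Pla2g3-/- label in coculture and -3.97 (15.7-fold lower) for Lpar1 loss. Of 22505 genes compared in the first, 0.0933% were as low or lower, and of 24545 in the second, 0.244%.

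Dusp5 encodes a nuclear phosphatase specific for ERK, and its signal was near the dim end of the arrays. The probe (chromosome 19, 53615682 to 53615741) read -7.63 in the Pla2g3-/- labelled coculture and -4.41 in the Pla2g3+/+ coculture, -6.52 on Lpar1-/- and -4.11 on Lpar1+/+ fibroblasts, and -5.83 and -5.40 in mast cells alone under the Pla2g3-/- label and Pla2g3+/+. The wild-type cocultures were highest, mast cells alone lay between, and the 2 other cocultures were lowest. It was 9.31-fold lower for the Pla2g3-/- label in coculture (-3.22, scanner error 0.34) and 5.31-fold lower for Lpar1 loss (-2.41). With normexp background correction these differences were -0.69 and -0.87, under 2-fold.

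Dusp4 and Dusp1 encode nuclear phosphatases of broader range; Dusp4 acts on ERK and JNK, and Dusp1 on p38, JNK and ERK. Dusp4 (chromosome 8, 35882045 to 35882104) read -2.87 in the Pla2g3-/- labelled coculture and 1.74 in the Pla2g3+/+ coculture, and -2.18 on Lpar1-/- and 1.60 on Lpar1+/+ fibroblasts. In mast cells alone it read 0.05 under the Pla2g3-/- label and 0.53 under Pla2g3+/+, between the wild-type and the other cocultures. Its differences were -4.61 (24.5-fold lower) for the label in coculture and -3.79 (13.8-fold lower) for Lpar1 loss.

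Dusp1 had its highest level in mast cells alone, 1.02 under the Pla2g3-/- label and 0.13 under Pla2g3+/+. In coculture it read -2.53 under the Pla2g3-/- label and -0.55 under Pla2g3+/+, and -2.59 on Lpar1-/- against -0.19 on Lpar1+/+ fibroblasts. The 2 low cocultures differed by less than the repeat error, as did the wild-type pair. Dusp1 was 3.93-fold lower for the Pla2g3-/- label in coculture (-1.98) and 5.28-fold lower for Lpar1 loss (-2.40). This probe is placed at chromosome 17, 26642526 to 26642536. A second probe that carries the name, 48.7 kb away at 26691199 to 26691258, was well above background on 2 arrays alone, at -7.69 with Lpar1-/- and -7.97 with Lpar1+/+ fibroblasts. It did not show the pattern of the first, and it was dim on both arrays of the Pla2g3 comparison in coculture.

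Dusp2 encodes a nuclear phosphatase of blood cells that is induced on activation. It read -3.41 in the Pla2g3-/- labelled coculture and 0.36 in the Pla2g3+/+ coculture, -1.86 on Lpar1-/- and 0.17 on Lpar1+/+ fibroblasts, and -3.19 and -2.52 in mast cells alone under the Pla2g3-/- label and Pla2g3+/+ (chromosome 2, 127163930 to 127163989). High signal was thus seen in the wild-type cocultures, and the Pla2g3-/- labelled coculture was as low as mast cells of that label alone within the repeat error. The Lpar1-/- coculture stood above it. Dusp2 was 13.7-fold lower for the label in coculture (-3.77) and 4.09-fold lower for Lpar1 loss (-2.03), and set directly against each other the Pla2g3-/- labelled coculture was 2.92-fold below the Lpar1-/- coculture (-1.55).

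Dusp10 encodes the phosphatase that prefers JNK and p38 and spares ERK. It read -4.09 in the Pla2g3-/- labelled coculture and -1.61 in the Pla2g3+/+ coculture, and -3.87 on Lpar1-/- and -1.69 on Lpar1+/+ fibroblasts (chromosome 1, 185898608 to 185898667). Mast cells alone read -3.48 under the Pla2g3-/- label and -3.54 under Pla2g3+/+, so that 4 arrays formed a low group, each within the repeat error of its neighbour, and the wild-type cocultures a high one. The differences were -2.49 (5.61-fold lower) for the label in coculture and -2.18 (4.54-fold lower) for Lpar1 loss.

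Spry1 (chromosome 3, 37543403 to 37543462), a Sprouty gene, followed Dusp6 in outline. It read -6.83 in the Pla2g3-/- labelled coculture and -2.32 in the Pla2g3+/+ coculture, and -6.71 on Lpar1-/- and -2.30 on Lpar1+/+ fibroblasts. In mast cells alone it read -3.12 under the Pla2g3-/- label and -2.42 under Pla2g3+/+. The 2 low cocultures were alike within the repeat error and stood far below the other 4 arrays. The differences were -4.51 (22.8-fold lower) for the label in coculture and -4.41 (21.2-fold lower) for Lpar1 loss, where 0.159% of 24545 genes were as low or lower. Over the 6 arrays Spry1 and Dusp6 had a Pearson correlation of 0.99, the highest of any pair among the 9 genes well above background on every array (Spry4 was left out), and the 6 points share 2 slides and few conditions.

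Spry2, which inhibits signalling from receptor tyrosine kinases to Ras, followed Dusp10. It read -5.86 in the Pla2g3-/- labelled coculture and -3.86 in the Pla2g3+/+ coculture, and -5.88 on Lpar1-/- and -3.78 on Lpar1+/+ fibroblasts (chromosome 14, 106291845 to 106291904). Mast cells alone read -5.82 under the label and -5.59 under Pla2g3+/+, no further from the low cocultures than the repeat error, which does not cover the slide. The differences were -2.00 (4.00-fold lower) for the label in coculture and -2.10 (4.29-fold lower) for Lpar1 loss. With normexp the first was -0.72, under 2-fold.

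Spry4, a Sprouty gene that also dampens the path from receptor to Ras, had low signal on most arrays. It read -6.87 on Lpar1-/- and -4.20 on Lpar1+/+ fibroblasts, and -7.45 and -7.38 in mast cells alone under the Pla2g3-/- label and Pla2g3+/+ (chromosome 18, 38745923 to 38745982). In the Pla2g3-/- labelled coculture the spot, at -9.61, was not well above background, against -3.91 in the Pla2g3+/+ coculture. That difference is therefore a bound, at least 18.2-fold lower, taken against the dimmest signal of that array that was still well above background (-8.09). For Lpar1 loss it was measured on both arrays and was 6.37-fold lower (-2.67), or -0.96 with normexp, under 2-fold. Signal was higher in the wild-type cocultures than on the other 4 arrays.

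Spred1 had the smallest differences of the 10. Its brightest probe (chromosome 2, 117005906 to 117005965) read 2.61 in the Pla2g3-/- labelled coculture and 3.64 in the Pla2g3+/+ coculture, and 2.08 on Lpar1-/- and 3.57 on Lpar1+/+ fibroblasts. Mast cells alone read 2.71 under the Pla2g3-/- label and 2.76 under Pla2g3+/+, close to the labelled coculture. The difference was -1.03 (2.04-fold lower) for the label in coculture and -1.50 (2.82-fold lower) for Lpar1 loss. The other probes of Spred1 were 1.38-fold and 1.22-fold lower in the first comparison and 2.33-fold and 1.73-fold lower in the second, so all 3 were lower in both, and the call of the first depends on the probe. With quantile normalization it was also under 2-fold.

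The first genotype comparison asked what the Pla2g3-/- label in the mast cells was accompanied by in coculture. All 10 genes were at least 2-fold lower and 0 higher, against 10.4% of all genes compared that were lower and 9.1% that were higher. Since the members were chosen with earlier results of these data known, such contrasts with all genes are description and no test. The median of the 10 was -3.50, and that of all genes -0.08. Among the measured values Dusp6, Dusp4 and Spry1 were the lowest, at 25.9-fold, 24.5-fold and 22.8-fold. With normexp, which pulls dim signals together, 7 of the 10 were at least 2-fold lower, beside 5.38% of all genes lower and 5.95% higher.

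The second asked the same of Lpar1 loss in the fibroblasts, with wild-type mast cells. Again all 10 genes were at least 2-fold lower and 0 higher, beside 8.84% of all genes lower and 11.3% higher. The median was -2.40, and that of all genes -0.05. This pair of arrays shares no array with the first pair. The order of the genes was partly the same: Spry1, Dusp6 and Dusp4 had the lowest differences of the measured values in both, and Spred1 had the smallest in both. In both comparisons all 10 differences exceeded the repeat error of 0.54.

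**Figure D2:**
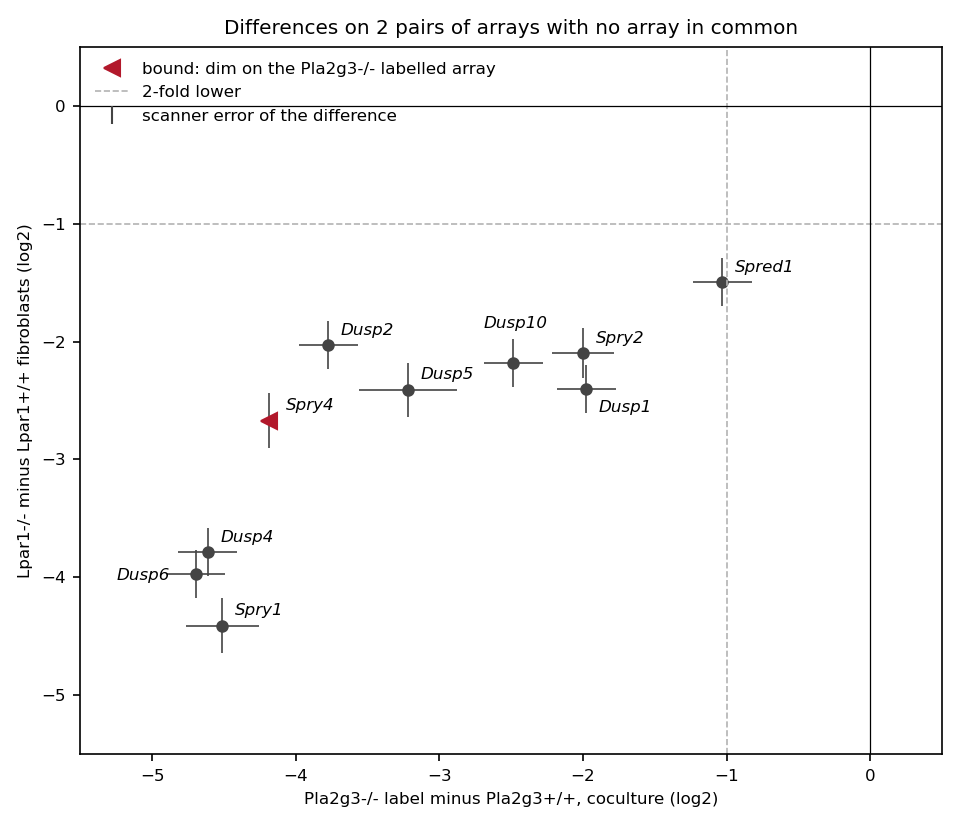
Log2 difference for Lpar1 loss in the fibroblasts (y axis) against that for the Pla2g3-/- label in coculture (x axis), 1 point per gene; bars are the scanner error of each difference and the triangle marks Spry4, a bound on the x axis. All 10 genes lie below and left of the dashed lines at 2-fold lower, with Spred1 nearest to them at -1.03 and -1.50.

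A direct comparison of the Pla2g3-/- labelled coculture with the Lpar1-/- coculture, added after the values were seen, called 3 of the 10 genes lower and 0 higher, where 5.07% of all genes were lower and 1.17% higher. The 3 were Dusp2 (-1.55), Dusp5 (-1.11) and Spry4 (at least 2.33-fold lower). Dusp4 at -0.69 and Dusp6 at -0.59 were beyond the repeat error and under 2-fold, and Spred1 at 0.54 was at its edge. Dusp1 (0.06), Spry2 (0.03), Spry1 (-0.12) and Dusp10 (-0.22) lay within it. With normexp or with quantile normalization 1 gene was called, and Dusp5 was 0.10 with normexp. Of all spots, 71.7% were well above background on the Pla2g3-/- labelled array and 79.1% on the Lpar1-/- array. The dimmest such signals were -8.09 and -8.45. The part of this array difference in the values of dim genes such as Dusp5 and Spry4 was not tested.

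Without fibroblasts the Pla2g3-/- label was accompanied by 0 of 10 genes at least 2-fold higher and 0 lower, where 0.423% of all genes were higher and 1.58% lower. The median was -0.15, and that of all genes was 0.00. Dusp1 (0.89), Spry1 (-0.70) and Dusp2 (-0.67) lay beyond the repeat error. Between the wild-type cocultures (Lpar1+/+ fibroblasts minus Pla2g3+/+) the 10 genes differed by -0.29 for Spry4 to 0.37 for Dusp1, with 0 of 10 past 2-fold in either direction and 0.803% of all genes higher and 0.166% lower.

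Coculture itself was accompanied by different directions under the 2 labels. Under the Pla2g3-/- label 5 of 10 genes were at least 2-fold lower in coculture than alone and 0 higher, against 7.3% of all genes lower and 11.4% higher (median -1.22, all genes 0.12). Under Pla2g3+/+ 5 were at least 2-fold higher and 0 lower, against 13% of all genes higher and 7.52% lower (median 1.10, all genes 0.13). Under the Pla2g3-/- label Dusp6 was 21.5-fold, Spry1 13.0-fold, Dusp1 11.7-fold, Dusp4 7.58-fold and Dusp5 3.50-fold lower. With normexp this difference of Dusp5 was under 2-fold. Under Pla2g3+/+ Spry4 was 11.1-fold, Dusp2 7.38-fold, Dusp10 3.83-fold, Spry2 3.32-fold and Dusp4 2.32-fold higher. Dusp4 is the one gene in both groups, and Dusp6 and Spry1 differed by 0.38 and 0.11 under Pla2g3+/+.

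Of the genes called lower under the Pla2g3-/- label, Dusp1 was -0.68 and Dusp5 0.99 under Pla2g3+/+. Of those called higher under Pla2g3+/+, Dusp2 (-0.22), Dusp10 (-0.62) and Spry2 (-0.04) were within 2-fold under the Pla2g3-/- label, and Spry4 was dim there, at least 1.56-fold lower. Spred1 was -0.09 under the Pla2g3-/- label and 0.88 under Pla2g3+/+. In the Lpar1-/- coculture set against Pla2g3+/+ mast cells alone, a comparison added after the values were seen, 5 of 10 genes were lower and 0 higher, where 7.19% of all genes were lower and 13.2% higher. They were Spry1 (-4.28), Dusp6 (-3.72), Dusp1 (-2.71), Dusp4 (-2.71) and Dusp5 (-1.12). Of these, Dusp5 was under 2-fold with normexp and Dusp1 with the mean of all probes. These 3 comparisons of coculture with mast cells alone share control arrays in part or lie across slides.

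**Figure D3:**
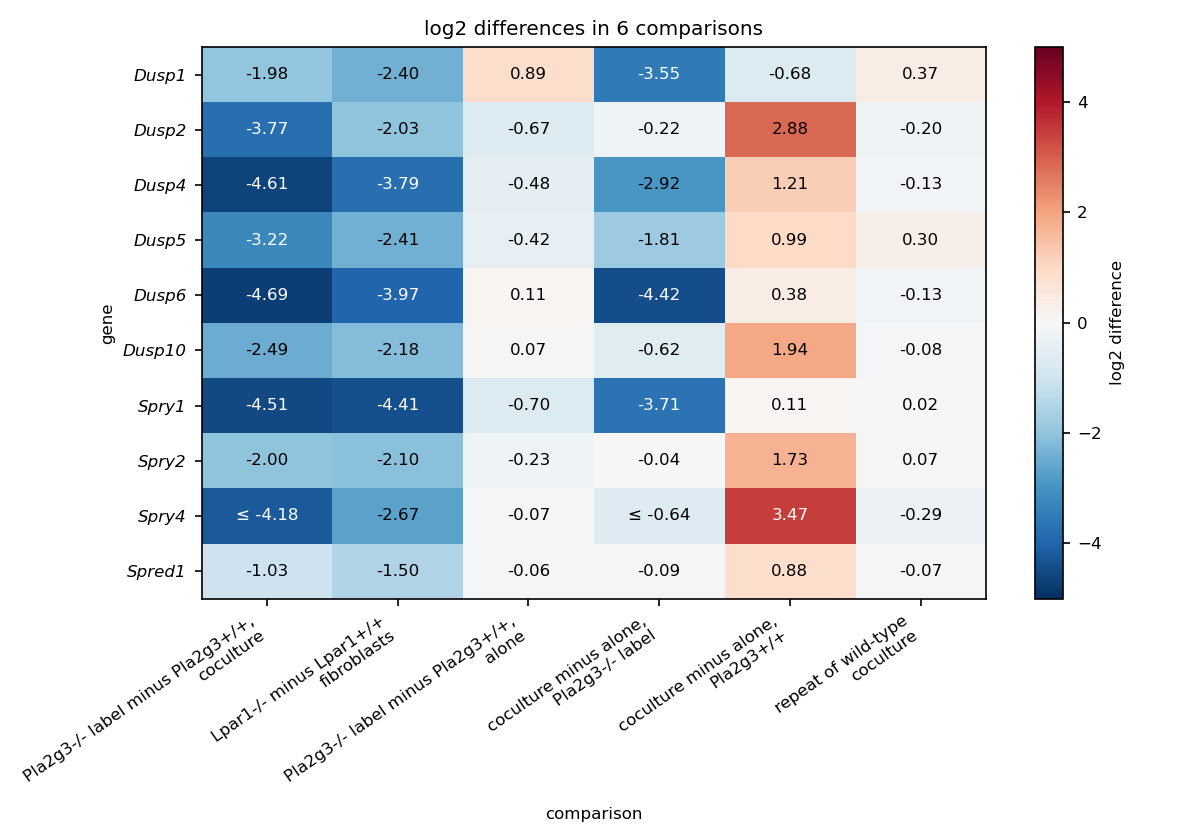
Log2 difference of each gene (rows) in 6 comparisons (columns), each the group named first minus the other; blue is lower, red higher, and the sign ≤ marks Spry4 where it is a bound. Both left columns are blue for all 10 genes, the columns of the Pla2g3-/- label alone and of the repeat stay within 2-fold, and the coculture columns differ between the labels.

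The coculture effect under the Pla2g3-/- label minus that under Pla2g3+/+, from which the slide drops out, was at least 2-fold lower for 9 of 10 genes and higher for 0, beside 10.4% of all genes lower and 9.56% higher. It ran from -4.80 for Dusp6 through -4.13 for Dusp4, at most -4.11 for Spry4, -3.81 for Spry1, -3.10 for Dusp2, -2.87 for Dusp1, -2.80 for Dusp5, -2.55 for Dusp10 and -1.77 for Spry2 to -0.97 for Spred1. With normexp 6 of 10 were called lower, with Dusp5, Spry2 and Spry4 under 2-fold. This difference uses the same arrays as the comparisons of the label and is no separate evidence.

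Genes around the 10 were described from lists chosen by role. Of all genes compared, 10.4% were lower and 9.1% higher for the Pla2g3-/- label in coculture, and 8.84% and 11.3% for Lpar1 loss. Of 22 genes of the ERK cascade itself (regulators of Ras, adaptors, Raf, MEK and ERK), 2 were higher and 1 lower for the Pla2g3-/- label in coculture (median 0.00), and likewise for Lpar1 loss (median 0.06). The Ras activators Rasgrp4 (3.31 and 3.25 for the label and for Lpar1 loss) and Rasgrp1 (1.79 and 1.42) were higher, and the Ras GTPase-activating protein gene Rasa2 was lower (-1.09 and -1.15). Mapk3, which encodes an ERK, was within the repeat error (0.20 and 0.10). Of 7 JNK and p38 kinase genes 0 were called for the label (median -0.47), and Mapk12 was lower for Lpar1 loss (-1.01, list median -0.21). Under Pla2g3+/+ coculture against alone, 5 of the 22 cascade genes were lower and 0 higher, beside 7.52% and 13% of all genes. Among these 5, Rasgrp4 was at -3.19 and Rasgrp1 at -2.41.

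Of 7 other MAP kinase phosphatase genes, 2 were lower for the label (median -0.88) and 3 for Lpar1 loss (median -0.37), and 0 were higher in either. The shares of all genes lower were 10.4% for the label and 8.84% for Lpar1 loss, and 9.1% and 11.3% were higher. Dusp8, a phosphatase of JNK and p38, was 26.2-fold and 58.1-fold lower, and Dusp16, a phosphatase of JNK, was 5.71-fold and 6.04-fold lower. Dusp3 was -0.97 and -1.29. Of 7 other inhibitors of receptor and Ras signalling, 5 could be compared for the label, with 2 lower and 0 higher (median -0.52), and 6 for Lpar1 loss, with 2 lower and 1 higher (median -0.45). Spred2, the closest relative of Spred1 in the list, was 14.6-fold and 10.5-fold lower. Il17rd was -1.11 for the label and 0.40 for Lpar1 loss, Errfi1, an inhibitor of the epidermal growth factor receptor, was -0.52 and -1.18, and Lrig1, of the same role, was 0.38 and 1.12.

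Of 12 other transcripts known to follow ERK activity, 9 were lower for the label and 0 higher (median -1.55), and 6 were lower for Lpar1 loss and 0 higher (median -1.04). Over all genes 10.4% were lower for the label and 8.84% for Lpar1 loss. Etv5, an ETS transcription factor, was 31.3-fold and 20.5-fold lower, Egr1, an immediate early transcription factor, 13.1-fold and 36.7-fold lower, and Myc 7.18-fold and 7.34-fold lower. Ccnd1, the cyclin of G1, was -1.82 and -1.46, and Fos was -1.43 and -2.21. Not all fell: 1 of the 12 was above 0 for the label and 3 for Lpar1 loss. Ier3 was 0.93 and 0.82, Etv1 -0.90 and 0.95, and Etv4 -1.21 and 0.09. Between coculture and culture alone this list went both ways, with 5 of 11 higher and 5 lower under the Pla2g3-/- label and 7 of 12 higher and 2 lower under Pla2g3+/+. Over all genes 11.4% were higher and 7.3% lower under the label, and 13% and 7.52% under Pla2g3+/+. Ccnd1 was 17.8-fold higher in coculture under the Pla2g3-/- label and 51.7-fold higher under Pla2g3+/+, Epha2 at least 30.7-fold higher under the label and at least 42.7-fold under Pla2g3+/+, and Fosl1 9.32-fold and 16.8-fold higher. Epha2 was dim in mast cells alone. Ccnd1, Epha2 and Fosl1 were higher in every coculture than in mast cells alone, as were the fibroblast markers that could be compared (given below). The part of fibroblast RNA in these values was not tested. Kit itself was 0.35 for the label and 0.36 for Lpar1 loss.

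**Figure D4:**
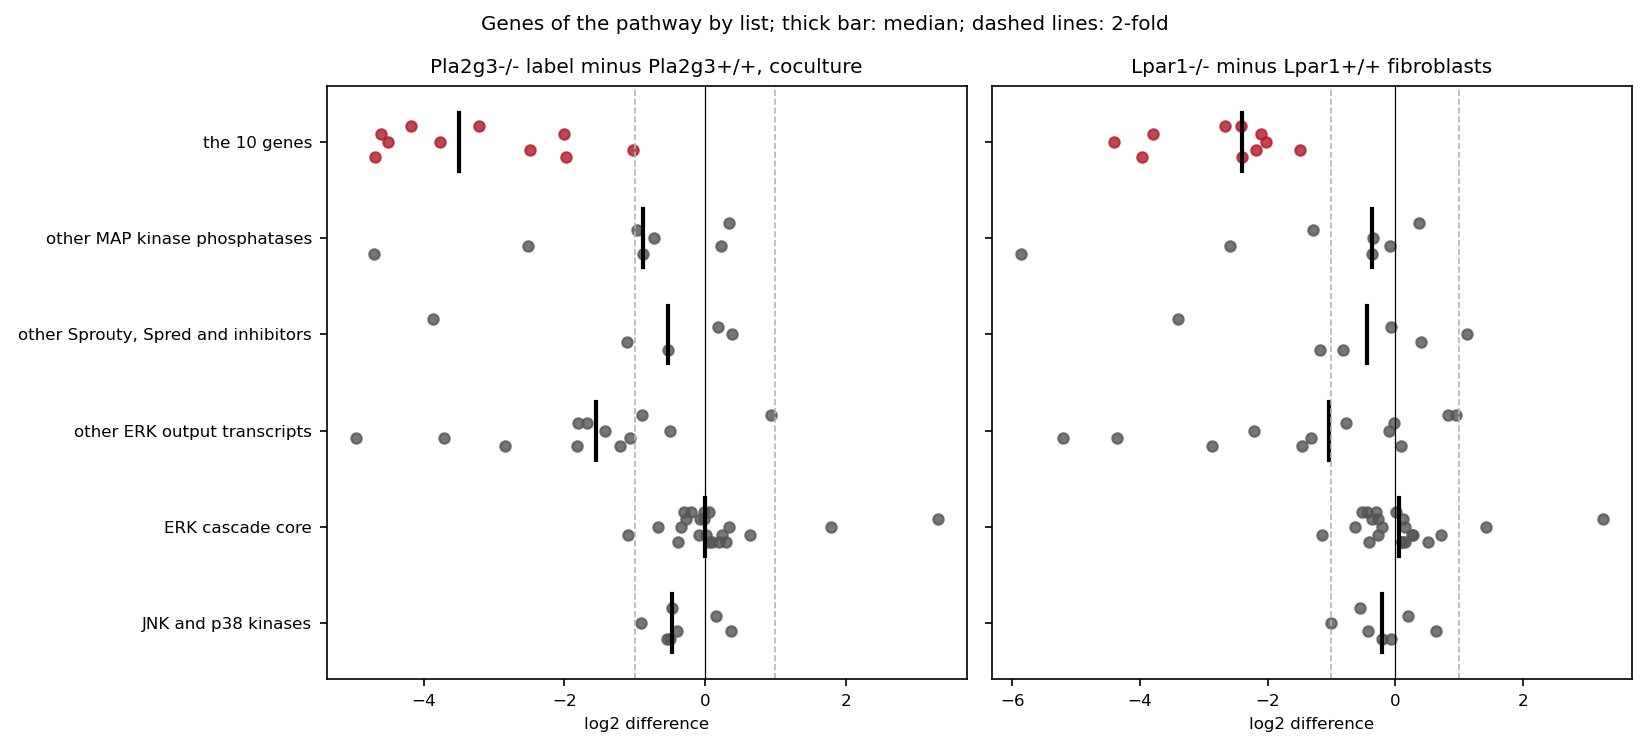
Log2 differences of the 10 genes (red) and of 5 lists of related genes (grey), 1 point per gene, for the Pla2g3-/- label in coculture (left) and for Lpar1 loss (right); thick bars are medians and dashed lines 2-fold. The 10 genes have medians of -3.50 and -2.40, and the ERK cascade genes 0.00 and 0.06.

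The genes whose levels ran most like each of the 9 members well above background on all 6 arrays were sought among 8223 genes with at least a 2-fold range. Over 6 arrays the 27 best matches, 3 per gene, had Pearson correlations of 0.987 to 0.9996, and 0 of the 27 were among the 10 genes. With 6 points that fall into few conditions such values are common: 5.29% to 9.66% of the genes searched reached 0.9 with a given member. Dusp6 ran most like Bpi (0.9985), Spag4 (0.9985) and Etv5 (0.9979), Spry1 like Tent4a, D7Bwg0826e and Vamp3, and Dusp4 like Fchsd2, BB166591 and Tespa1. Dusp10 ran most like Gbp9, Rfc3 and Cass4, Spry2 like Slc35e4, Nt5dc2 and the replication licensing gene Cdt1, and Dusp2 like Hhla1, Rassf3 and Fndc3b. Dusp1 ran most like Hyou1, Clpb and Tmem205, Dusp5 like Mphosph8, Garnl3 and Zfp9, and Spred1 like an unnamed probe (A_55_P1990066), the mitotic kinase gene Aurkb and Znrf2. Among these 9 genes themselves, the pair of Dusp10 and Spry2 (0.985) came next after Dusp6 and Spry1 (0.990), and Dusp1 and Dusp2 were least alike (0.12).

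Markers of the cells in the samples moved with these comparisons in part. Over all genes 10.4% were lower and 9.1% higher for the Pla2g3-/- label in coculture, and 8.84% and 11.3% for Lpar1 loss. Per the labels, mast cells were separated from the fibroblasts as cells that did not attach or with beads against Kit, and the route taken for the arrays is not stated. All 13 mast cell markers were well above background on every array, with a summed level of 649 to 830 in units of the 75th percentile. Of the 13, 3 were at least 2-fold lower and 0 higher in each genotype comparison (median -0.06 for the Pla2g3-/- label in coculture and -0.34 for Lpar1 loss). They were the histidine decarboxylase gene Hdc (-2.29 and -3.28), the tryptase gene Tpsb2 (-1.21 and -1.22) and the chymase gene Mcpt4 (-1.13 and -2.21), all lower where the 10 genes were lower. Of 17 fibroblast markers 16 were well above background in every coculture and 7 in mast cells alone, with Lum dim throughout. Their summed level was 15.6 in the Pla2g3-/- labelled coculture against 36.4 in the Pla2g3+/+ coculture, 31.8 on Lpar1-/- against 37.6 on Lpar1+/+ fibroblasts, and 0.17 and 0.21 in mast cells alone under the Pla2g3-/- label and Pla2g3+/+. For the label in coculture 11 of 16 compared were lower and 0 higher, led by Dcn (-2.45) and Ccn1 (-1.91), and for Lpar1 loss 2 were lower and 2 higher, with Ccn2 at 3.52 and Ccn1 at -1.25.

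The summed level of 8 macrophage markers was 3.04 in the Pla2g3-/- labelled coculture against 10.1 in the Pla2g3+/+ coculture, 1.85 on Lpar1-/- against 9.90 on Lpar1+/+ fibroblasts, and 2.58 and 3.35 in mast cells alone under the Pla2g3-/- label and Pla2g3+/+, with C1qa dim on 4 arrays. These sums are carried mostly by Cd68, at 3.13 in the Pla2g3+/+ coculture and 3.12 on Lpar1+/+ fibroblasts. The median levels were -4.56 against -2.39, -3.51 against -2.52, and -4.36 and -2.44. Of 7 compared for the label 4 were lower and 0 higher, beside 10.4% and 9.1% of all genes. For Lpar1 loss 3 of 8 were lower and 0 higher, beside 8.84% and 11.3%. Mrc1 was at least 52.5-fold lower for the label and 37.7-fold lower for Lpar1 loss, and Cd68 3.70-fold and 8.21-fold lower. Mpeg1 was 11.9-fold and 2.32-fold lower, and Lyz2 5.17-fold and 1.70-fold lower. Adgre1 (0.15 and 0.05), C1qb (0.04 and 0.15) and Csf1r (-0.53 and -0.26) were within 2-fold in both. The summed level of 10 neutrophil and eosinophil markers was 1.86 against 4.17, 13.3 against 4.51, and 2.59 against 41.8 in the same order of pairs, with Epx and Ear2 dim in every coculture. Of 8 compared, 3 were lower and 0 higher for the label, S100a8 at -2.05, whereas 7 were higher and 0 lower for Lpar1 loss, S100a8 at 1.72. The part of the cells these markers stand for in the values of the 10 genes and of the other lists was not tested.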

How the data were processed

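Single-colour data of 6 arrays of RNA from mast cell samples were used. The members and lists were chosen with earlier results of these data known. Per the file headers, the authors obtained each spot's intensity with Agilent Feature Extraction 12.1.1.1, which detrended it spatially, subtracted background and put a surrogate value in place of some dim ones. This bears on low values in general, but no probe of the members held a surrogate value on any array. The deposited table of values is a linear signal, the processed intensity of each array divided by 1 constant (1230.44, 1268.76, 1243.09, 1469.88, 1458.71 and 1520.37 for Pla2g3-/- labelled and Pla2g3+/+ cells alone, both again in coculture, Lpar1-/- and Lpar1+/+ fibroblasts). Its column medians were 0.0338, 0.0357, 0.0448, 0.0439, 0.0483 and 0.0428, so its scale and direction were settled and no centring was found.

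Here the processed intensity was put on the log2 scale and the 75th percentile of its array taken off (Python 3.11.15, pandas 2.3.3). Spots marked as outliers (84 to 115 on an array) were left out, and repeated spots of a probe averaged. This gave 39416 of 39429 probes. A gene with several probes was represented by the one brightest on average. A gene was compared where at least 1 array was well above background, and called at 2-fold. Where 1 array was not, the difference is a bound against the array's dimmest signal still well above background or the dim probe's own signal, whichever was higher. Of the 10 members 9 were well above background on every array, and Spry4 on all but 1. Gene names came from the RefSeq table of GRCm38.p6 by accession (29510 probes), symbol (3000) or synonym (16), and 6903 kept the name in the file. The files place probes on mm9; without an annotation of that build, exons and untranslated regions are not named. The scanner error is that of the error model recorded with each spot, and it does not cover the culture.

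With 1 array per group there was no test, no replicate to leave out and no interval. The scripts were tested on simulated data. Genes other than the members were named by a rule: at most 4 members past 2-fold of each list by size in a comparison, with Kit, Mapk3 and Egr1 always, the targeted genes, and the 3 most like genes per member. A gene that the rule always names is not reported here. Genes that met it in 1 genotype comparison are given in both, and dim markers were named after their values were seen. Outside the rule, Adgre1, C1qb, Csf1r, Etv1, Etv4 and Ier3 are named because they did not move with the genes called in at least 1 comparison. Alternatives were normexp background correction (limma 3.58.1 in R 4.3.3, offset 50), quantile normalization, the mean of all probes, a filter to genes well above background on every array compared, the deposited value table and the other wild-type coculture array.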

Additional observations from a re-analysis of the deposited data

Results flagged for a closer look

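Dusp4, the nuclear phosphatase gene, went in opposite directions past 2-fold between coculture and culture alone. The difference was -2.92 under the Pla2g3-/- label and 1.21 under Pla2g3+/+, and their difference was -4.13 on the log2 scale. With 1 array for each of the 4 groups, the difference between these effects was not tested. It was -3.75 with normexp background correction.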

How the results depend on the processing

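Of 90 log2 differences (10 genes in 9 comparisons), 40 moved by more than the spread between the wild-type cocultures (SD 0.26) with normexp and 14 crossed 2-fold, 20 moved and 3 crossed with quantile normalization, and 11 moved and 2 crossed with the mean of probes. None moved with the deposited value table, or, of 86, with the filter to genes well above background on every array. With the other wild-type coculture array 12 of 40 moved and 2 crossed. The count of genes at least 2-fold higher in Pla2g3+/+ coculture was 3 with normexp in place of 5 (Spry2 0.70, Spry4 0.99), where 6.23% of all genes were higher. The count lower in the Pla2g3-/- labelled against the Lpar1-/- coculture was 1 in place of 3 with normexp and 1 with quantile normalization, and Dusp5 turned to 0.10 there with normexp in place of -1.11. The genes lower with normexp were 7 for the Pla2g3-/- label and 8 for Lpar1 loss in place of 10 in each (5.38% and 5.92% of all genes lower), and 6 in place of 9 for the difference of coculture effects (5.005%). By its construction, normexp with an offset draws dim signals together; the cause of the other shifts was not tested. The median of all genes moved by over 0.1 for Pla2g3+/+ coculture, from 0.13 to -0.01 with normexp and 0.00 with quantile normalization, for coculture under the Pla2g3-/- label from 0.12 to 0.02 with quantile normalization, for the label in coculture from -0.08 to 0.09 and for the difference of coculture effects from -0.06 to 0.11 with normexp. The Lpar1-/- coculture against cells alone moved from 0.15 to 0.00 with either. The share of calls that were higher was 63.4% for Pla2g3+/+ coculture (48.8% with quantile normalization), 61.0% under the Pla2g3-/- label (50.3%), 64.7% for the Lpar1-/- coculture against cells alone (52.5% with normexp, 50.7% with quantile normalization), 18.7% for the labelled against the Lpar1-/- coculture (41.0% and 43.4%) and 82.8% between the wild-type cocultures (100% and 45.7%). Leaving out an array was not possible with 1 per group. No paired analysis was possible because each group has 1 array.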
